A study of Mus musculus with 2 samples.

Results

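Of the 30943 cells in the single-cell RNA-seq data of P30 mouse retina, 221 carried the annotation RGC (retinal ganglion cell) in the cell table deposited by the authors, and all 221 are described here. Of these, 124 came from the Ptbp1-Ctrl library and 97 from the Ptbp1-KO library. All but 1 lay in cluster 6, which also held 771 amacrine cells (AC) and 24 horizontal cells. The remaining RGC was a Ptbp1-Ctrl cell of 738 UMIs in a cluster of rods. It had 19.4% mitochondrial UMIs and 3 Thy1 UMIs, and none of the other ganglion cell markers. A UMI is a unique molecular identifier, counted once for each captured RNA molecule.

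Both libraries came from whole retina at 30 days of age. Ptbp1-Ctrl carried Chx10-Cre alone, and Ptbp1-KO was Chx10-Cre;Ptbp1lox/lox. Chx10-Cre expresses Cre recombinase in retinal progenitors, so the cells that descend from them, ganglion cells included, lose the floxed part of Ptbp1, which encodes an RNA-binding repressor of neuronal splicing. Each genotype had 1 library, so no difference between genotypes has a replicate check, and genotype, animal and library cannot be told apart. Intervals below are exact 95% intervals that cover counting error only. A total of 63 barcodes occurred in both libraries, and 1 RGC carried such a barcode.

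Retinal ganglion cells are the output neurons of the retina. Their axons form the optic nerve, and they release glutamate loaded into vesicles by the transporter encoded by Slc17a6. They make up a small part of retinal neurons and comprise many subtypes that differ in dendrite shape, light response and marker genes. Amacrine cells, many of which use GABA or glycine, share the inner retina with them, and displaced amacrine cells lie in the ganglion cell layer itself. Rods are the most numerous cells of the mouse retina.

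RGC were shallow cells. Their median depth was 1144 UMIs in the Ptbp1-Ctrl library and 1475 in the Ptbp1-KO library, with a range over both libraries of 704 to 9514. AC of cluster 6 had medians of 2256 and 3684 UMIs, and rods had medians of 1088 and 1288. Summed, the RGC held 213051 UMIs in the Ptbp1-Ctrl library and 183610 in the other. Depth differed this much between the cell types, so shares of cells with a UMI are given after each cell was thinned at random to 1000 UMIs, which kept 76 Ptbp1-Ctrl and 71 Ptbp1-KO RGC and left out 48 and 26 shallower ones. Levels are UMIs of a gene per 1000000 UMIs of the summed cells (CPM).

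RGC made up 0.755% of all Ptbp1-Ctrl cells (Clopper-Pearson interval 0.628 to 0.900) and 0.668% of all Ptbp1-KO cells (0.542 to 0.814). The intervals overlapped. Among cells of at least 1000 UMIs the shares were 0.636% and 0.631%. Within cluster 6 the RGC share was 28.4% (24.2 to 32.9) in Ptbp1-Ctrl and 16.7% (13.7 to 19.9) in Ptbp1-KO. Those intervals were apart, and the number of AC in cluster 6, which is in the denominator, was 293 in Ptbp1-Ctrl and 478 in Ptbp1-KO.

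The summed RGC carried the ganglion cell markers in both libraries, far above AC of the same cluster and above rods. Because the authors named cell types from genes, and how RGC were separated from AC within cluster 6 is not given in the sources used here, levels across genes describe the annotation and are not a test of it. The 6 markers were Rbpms (chr8:33782643-33929863), which encodes an RNA-binding protein used as a general ganglion cell label, Slc17a6 (chr7:51622006-51671119), Pou4f1 (chr14:104461676-104467999), a POU-domain transcription factor, Nefl (chr14:68083863-68089095), the neurofilament light chain, Thy1 (chr9:44043384-44048579), a cell-surface glycoprotein, and Sncg (chr14:34370274-34374789), gamma-synuclein. Coordinates are GENCODE vM21 gene bodies on GRCm38, which is mm10. The median log2 ratio of RGC over AC of cluster 6 was 4.38 for the 6 markers, with Pou4f1 of Ptbp1-Ctrl at a bound, against -0.12 for all 4381 genes tested. A gene was tested with a mean of at least 50 CPM and at least 50 UMIs over both cell groups.

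Slc17a6 was at 451 CPM in Ptbp1-Ctrl RGC (Poisson interval 365 to 550, 96 UMIs in 45 cells) and 370 CPM in Ptbp1-KO RGC (288 to 470, 68 UMIs in 33 cells). AC of cluster 6 had 15.3 and 10.9 CPM, and rods had 1.38 and 0.828. Sncg stood at 953 CPM in Ptbp1-Ctrl RGC (826 to 1093, 203 UMIs in 32 cells) and 408 CPM in Ptbp1-KO RGC (321 to 512, 75 UMIs in 24 cells). AC of cluster 6 held 7.04 and 6.76 CPM of Sncg, so the summed level of either gene was higher in RGC in both libraries. Pou4f1 was found in 10 Ptbp1-Ctrl RGC with 26 UMIs and 6 Ptbp1-KO RGC with 18 UMIs. It had 0 UMIs in Ptbp1-Ctrl AC of cluster 6, so that RGC were higher by a log2 ratio of at least 5.12 against a floor of 3 counts per library, and 10 UMIs in those of Ptbp1-KO, at a log2 ratio of 4.24. Thy1 was the marker with the highest level in AC of cluster 6, at 129 and 93.6 CPM, against 742 and 790 CPM in RGC.

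At 1000 UMIs per cell, Thy1 was detected in 43.5% of RGC, Nefl in 25.2%, Slc17a6 in 24.5%, Sncg in 23.1%, Rbpms in 10.2% and Pou4f1 in 6.80%, both libraries pooled. Without thinning the shares were 55.2% for Thy1, 25.3% for Nefl, 35.3% for Slc17a6, 25.3% for Sncg, 15.4% for Rbpms and 7.24% for Pou4f1. In rods, which should lack these genes, the shares at 1000 UMIs ran from 0.0166% for Pou4f1 to 0.323% for Nefl. Each marker was thus found in a larger share of RGC than of rods, and also than of AC of cluster 6, where the shares ran from 0.294% for Pou4f1 to 9.26% for Thy1. Shares were close in the RGC of the 2 libraries, with overlapping intervals for each marker.

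**Figure D1:**
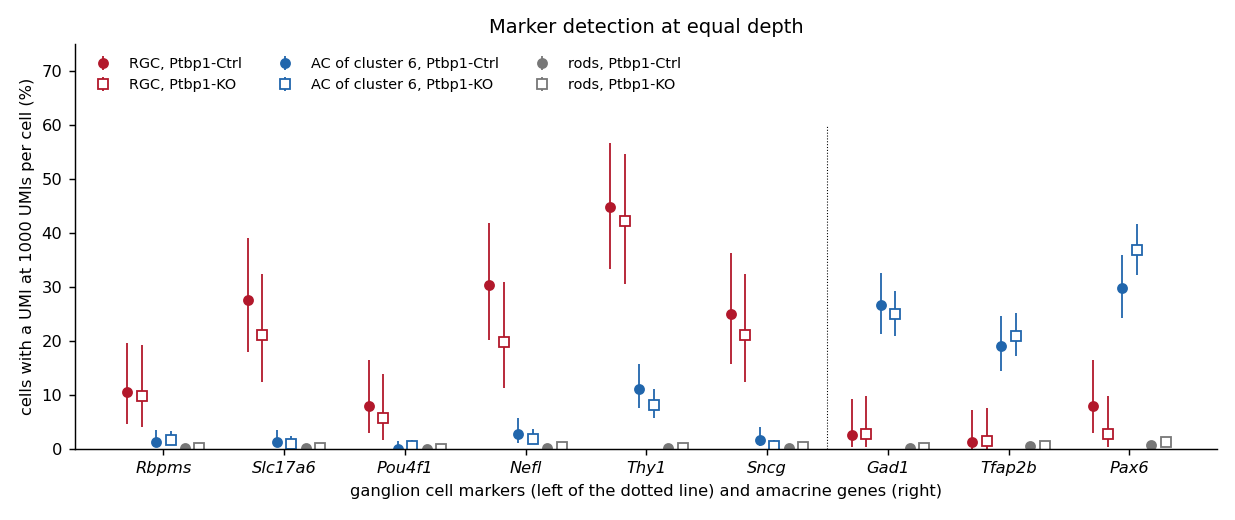
Percent of cells with at least 1 UMI of each gene (y axis) after thinning to 1000 UMIs per cell, for 6 ganglion cell markers and 3 amacrine genes (x axis); colours are cell groups, filled circles Ptbp1-Ctrl, open squares Ptbp1-KO, bars Clopper-Pearson 95% intervals. RGC lie above AC of cluster 6 and rods for the 6 markers, with Thy1 at 43.5% over both libraries, and below AC of cluster 6 for Gad1, Tfap2b and Pax6.

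Marker detection was uneven from cell to cell. At 1000 UMIs, 58 of the 147 RGC (39.5%, interval 31.5 to 47.8) had no UMI of any of the 6 markers, 28 of them in Ptbp1-Ctrl and 30 in Ptbp1-KO. A UMI of 2 or more markers was found in 42.1% of Ptbp1-Ctrl RGC (30.9 to 54.0) and in 33.8% of Ptbp1-KO RGC (23.0 to 46.0), or 38.1% over both. That share was 2.79% of 251 Ptbp1-Ctrl and 1.86% of 429 Ptbp1-KO cells among AC of cluster 6. Rods were at 0% of 5903 cells and 0.0162% of 6175 cells. Unthinned, 77 RGC (34.8%) had no marker and 45.2% had 2 or more. RGC without a marker UMI were therefore a sizeable share of the annotation at either depth.

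**Figure D2:**
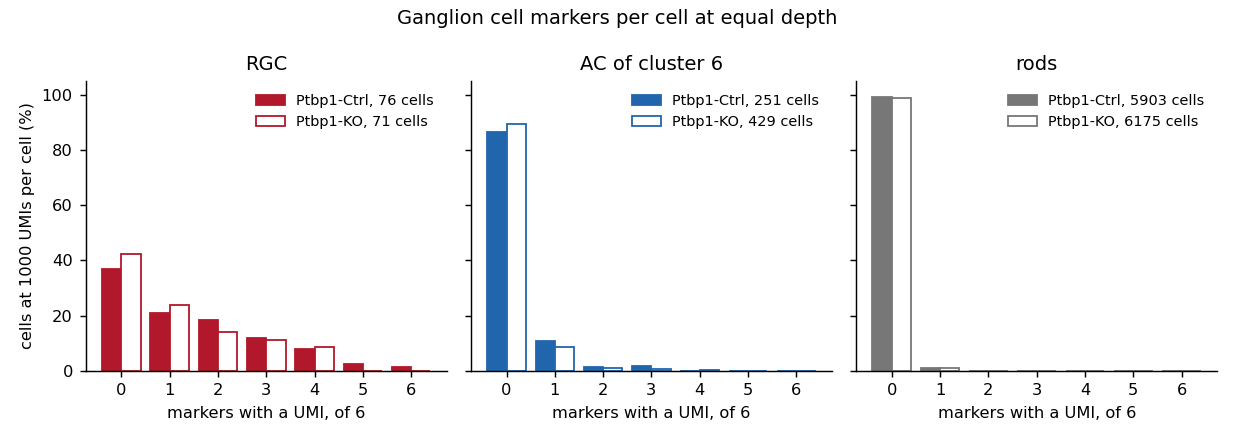
Percent of cells (y axis) by the number of the 6 ganglion cell markers with a UMI (x axis) after thinning to 1000 UMIs per cell, in RGC, AC of cluster 6 and rods; filled bars are Ptbp1-Ctrl and open bars Ptbp1-KO. RGC spread from 0 markers (39.5% of 147 cells) upwards, while nearly all rods have none.

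Outside the annotation few cells carried many markers. Counting all UMIs, 34 RGC had 4 or more of the 6 markers, 20 of them in Ptbp1-Ctrl and 14 in Ptbp1-KO. Only 11 of the other 30722 cells did, namely 10 AC of cluster 6 and 1 bipolar cell. These 10 AC had a median mitochondrial share of 4.74% and rod gene share of 0.449%, and 3 of them (30.0%) had a UMI of Gad1 or Gad2, the GABA-synthesis enzymes, against 44.9% of the other 761 AC of the cluster. Among the 34 RGC with 4 or more markers, 2 had a Gad1 or Gad2 UMI, and among the 77 RGC with none, 9 (11.7%) did.

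A few deep cells carried much of the marker RNA. The 10 deepest RGC, of which 7 were Ptbp1-Ctrl and 3 Ptbp1-KO cells, had 5541 to 9514 UMIs each and held 19.0% of all RGC UMIs. Of the UMIs of the 6 markers they held 44.5%, or 54.5% in the Ptbp1-Ctrl library and 28.0% in the Ptbp1-KO library. Of these cells 9 had 5 or 6 of the markers, with rod genes at 0.113% to 0.455% of their UMIs. The exception was a Ptbp1-KO cell of 6000 UMIs with 2 markers, 12.1% rod genes and 0.0833% Malat1. Without these 10 cells, a choice made after seeing the data, the median log2 ratio of the 6 markers over AC of cluster 6 was 3.26, and 34.3% of RGC had 2 or more markers at 1000 UMIs.

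Across the transcriptome, 240 of 4381 genes (5.48% of those tested) were at least 2-fold higher in RGC than in AC of cluster 6 in both libraries, and 449 (10.2%) were at least 2-fold lower. By the rule used for the gene lists below, that the intervals of both libraries lie on the same side of 0, 515 genes (11.8%) were higher and 663 (15.1%) lower. With rod and mitochondrial genes taken out of the totals, the counts were 324 higher and 399 lower, and the median of all genes moved from -0.12 to 0.00 on the log2 scale. Against rods, 558 of 4043 genes (13.8%) were at least 2-fold higher in RGC in both libraries, the 6 markers among them with a median log2 ratio of 8.18, and 286 (7.07%) were at least 2-fold lower. The genes furthest above AC of cluster 6 included 5 of the 6 markers and Spp1, Chrna6, Nefm, Nrn1, Lgi3, S100a10 and Fxyd7. Spp1 (chr5:104435118-104441050), which encodes osteopontin and marks alpha ganglion cells, had 43 UMIs in 8 Ptbp1-Ctrl RGC and 7 UMIs in 2 Ptbp1-KO RGC. Against 3 and 4 UMIs in AC of cluster 6 its log2 ratios were 5.84 (4.20 to 8.17) and 4.20 (2.22 to 6.41), so this value rests on 10 RGC in all. Chrna6, a nicotinic acetylcholine receptor subunit, was more widely spread. Its level was 253 CPM in 35 Ptbp1-Ctrl RGC and 196 CPM in 25 Ptbp1-KO RGC, against 12.9 and 14.6 CPM in AC of cluster 6. Nrn1, which encodes the neurite outgrowth factor neuritin, was at 544 and 278 CPM in RGC against 28.2 and 10.9 CPM. S100a10, a calcium-binding protein of the S100 family, had 43 UMIs in 13 Ptbp1-Ctrl RGC and 13 UMIs in 5 Ptbp1-KO RGC, and its log2 ratio was 5.10 and 3.92.

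The genes furthest below AC of cluster 6 included 3 transcription factors. Maf, a bZIP transcription factor, had 0 UMIs in RGC of both libraries, against 450 and 727 UMIs in AC of cluster 6, which gives log2 ratios of at most -5.23 and -4.53 against the floor of 3 counts. Tfap2a, an AP-2 transcription factor of amacrine and horizontal cells, had 1 UMI in each library's RGC, at log2 ratios of -4.55 (-9.87 to -2.04) and -4.66 (-9.97 to -2.17). Nfia, a nuclear factor I transcription factor, had 3 and 2 UMIs in RGC, at log2 ratios of -4.04 (-6.33 to -2.48) and -4.73 (-7.78 to -2.87). Zfp804a, a zinc finger gene, had 5 UMIs in the RGC of each library against 583 and 1363 UMIs in AC of cluster 6. The remaining names were Necab1, Lgr5, Adamtsl1 and Nckap5, each with 1 to 3 UMIs per library in RGC.

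Of the axon and cytoskeleton genes, 9 were higher in RGC than in AC of cluster 6. Of 17 listed genes 16 could be measured. The intervals of both libraries lay above 0 for 9, against 11.8% of all genes, and below 0 for 3, against 15.1%, and the median log2 ratio was 1.62. Nefl, Thy1 and Sncg are also among the 6 markers. Stmn2, a microtubule regulator of growing axons, was at 559 CPM in Ptbp1-Ctrl RGC and 419 CPM in Ptbp1-KO RGC, against 127 and 113 CPM in AC of cluster 6. Nefm, the medium neurofilament chain, was at 178 and 147 CPM against 8.22 and 12.5 CPM. Uchl1, a neuronal ubiquitin hydrolase, was at 451 and 223 CPM against 54.0 and 98.8 CPM. The 3 members below AC of cluster 6 were Mapt, Kif5c and Sncb. Mapt, which encodes the microtubule-associated protein tau, was at 122 and 125 CPM against 222 and 263 CPM. Kif5c, a kinesin motor, was at 51.6 and 65.4 CPM against 177 and 203 CPM. The summed list was at 6083 CPM in RGC, 2972 CPM in AC of cluster 6 and 1394 CPM in rods, both libraries pooled.

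The transmission and excitability genes held both higher and lower members. All 18 were measured, 5, among them Slc17a6, Chrna3, Chrna6 and Chrnb3, were higher and 2 (Kcnd2 and Gria1) lower than in AC of cluster 6 in both libraries beyond counting error, against 11.8% and 15.1% of all genes, and the median log2 ratio was 0.21. Chrnb3, a nicotinic receptor subunit, was at 263 and 202 CPM against 81.0 and 71.8 CPM. Its intervals overlapped between the 2 libraries.

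RGC transcription factors differed from AC of cluster 6 at shares near those of all genes. Of 25 listed, 15 had enough UMIs to measure, 1 (Pou4f1) was higher and 2 (Ebf1 and Barhl2) lower in both libraries, against 11.8% and 15.1% of all genes, and the median log2 ratio was -0.45. Ebf1, an early B-cell factor family member that amacrine cells express as well, was at 169 and 223 CPM in RGC against 412 and 433 CPM in AC of cluster 6. Isl1, a LIM homeodomain factor of ganglion, bipolar and starburst cells, was at 75.1 and 27.2 CPM against 32.9 and 27.0 CPM. Its Ptbp1-Ctrl interval lay above 0 and its Ptbp1-KO interval did not. Any of Pou4f1, Pou4f2 and Pou4f3 had a UMI in 22 of the 221 RGC.

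Amacrine genes were lower in RGC but present. All 12 AC markers were measured, and 11 were lower than in AC of cluster 6 in both libraries, against 15.1% of all genes, with a median log2 ratio of -2.53. Gad1 was at 42.2 and 43.6 CPM in RGC against 479 and 536 CPM, and at 1000 UMIs it was found in 2.72% of RGC, 25.6% of AC of cluster 6 and 0.174% of rods. Slc32a1, the vesicular inhibitory amino acid transporter, was at 150 CPM in Ptbp1-Ctrl RGC against 189 CPM, with an interval of the log2 ratio that included 0 (-0.93 to 0.22), and at 92.6 CPM in Ptbp1-KO RGC against 236 CPM. Of 7 starburst amacrine genes, 4 had 0 UMIs in RGC. The summed AC markers were at 928 CPM in RGC, 3648 CPM in AC of cluster 6 and 418 CPM in rods.

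Markers of other cell types differed in level. Müller glia markers summed to 840 CPM in RGC, 731 CPM in AC of cluster 6 and 241 CPM in rods, and bipolar cell markers to 608, 1011 and 1444 CPM. Of 10 genes of pigment epithelium, blood and oligodendrocytes, 7 had 0 UMIs in RGC, as did 3 of 5 astrocyte genes, 3 of 7 vascular genes and 3 of 8 microglia genes. The microglia list summed to 118 CPM in RGC, 64.2 CPM in AC of cluster 6 and 53.5 CPM in rods. Bipolar cell markers were lower than in AC of cluster 6 for 4 of 10 genes and higher for none. Of all genes, 15.1% were lower and 11.8% higher by the same rule. Clu, which encodes the chaperone clusterin and was listed among Müller glia markers, was higher in RGC than in AC of cluster 6, at 380 and 245 CPM against 77.5 and 84.3 CPM, while the median log2 ratio of its list of 8 was -0.10.

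Rod RNA made up a larger part of RGC than of AC of cluster 6, and a smaller part than of rods. The 15 rod genes, which encode proteins of the rod outer segment and of rod identity, held 4.27% of summed UMIs in Ptbp1-Ctrl RGC and 5.18% in Ptbp1-KO RGC. They held 1.69% and 1.33% in AC of cluster 6 and 7.09% and 6.42% in rods. All 15 were higher in RGC than in AC of cluster 6 in both libraries, against 11.8% of all genes, with a median log2 ratio of 1.64. As a percent of the rods' own level, the rod genes in RGC ran from 44.4% for Rp1 to 69.7% for Gngt1 in Ptbp1-Ctrl, with a median of 61.1%, and from 56.1% to 95.1% for the same genes in Ptbp1-KO, with a median of 83.0%. In AC of cluster 6 the medians were 24.0% and 20.5%.

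At matched depth the gap to AC of cluster 6 was smaller in the Ptbp1-KO library. Among cells of 1000 to 3000 UMIs the median rod gene share per cell was 4.88% in Ptbp1-Ctrl RGC and 4.04% in Ptbp1-KO RGC, 1.79% and 2.51% in AC of cluster 6, and 6.70% and 5.04% in rods. Over all cells the medians were 3.83% and 3.37% in RGC and 1.25% and 0.690% in AC of cluster 6. Cone markers did not behave in the same way. Their median in RGC was 0.359% and 0.572% of the level in cones. That was below the median in AC of cluster 6 (2.36% and 1.67%) and in rods (0.652% and 0.717%). The exception among the 8 cone markers was Guca1a, a guanylate cyclase activator that rods express too, at 34.9% and 48.3% of the cone level.

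Mitochondrial RNA was also higher in RGC. The median mitochondrial percent per cell was 6.22% in Ptbp1-Ctrl RGC and 5.78% in Ptbp1-KO RGC, with quartiles of 3.70% and 9.95% over both. It was 1.77% and 1.59% in AC of cluster 6 and 1.92% and 1.51% in rods. Of the RGC 55 (24.9%) had 10% or more, 32 in Ptbp1-Ctrl and 23 in Ptbp1-KO, against 1.04% of AC of cluster 6 and 1.06% of rods. Among cells of 1000 to 3000 UMIs the medians were 5.97% and 6.91% in RGC, 2.08% and 2.07% in AC of cluster 6, and 2.34% and 1.57% in rods. Of the 13 mitochondrial genes 12 were at least 2-fold above AC of cluster 6 in both libraries, against 5.48% of all genes.

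Malat1, a nuclear long noncoding RNA that is abundant in intact nuclei, was lower in RGC. Its median share per cell was 0.808% in Ptbp1-Ctrl RGC and 1.21% in Ptbp1-KO RGC, against 2.83% and 3.41% in AC of cluster 6 and 2.79% and 3.39% in rods. Of all RGC, 112 (50.7%) had Malat1 at under 1% of their UMIs, against 9.60% of AC of cluster 6. In the same direction, the neuronal noncoding RNA Meg3 was at 821 and 381 CPM in RGC against 1130 and 1193 CPM in AC of cluster 6. Of 6 measured nuclear long noncoding RNAs 3 were lower beyond counting error in both libraries, against 15.1% of all genes. The other 3 were neither higher nor lower by that rule, though 1 was at least 2-fold higher in both libraries. No cause of the rod, mitochondrial and Malat1 values was tested.

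**Figure D3:**
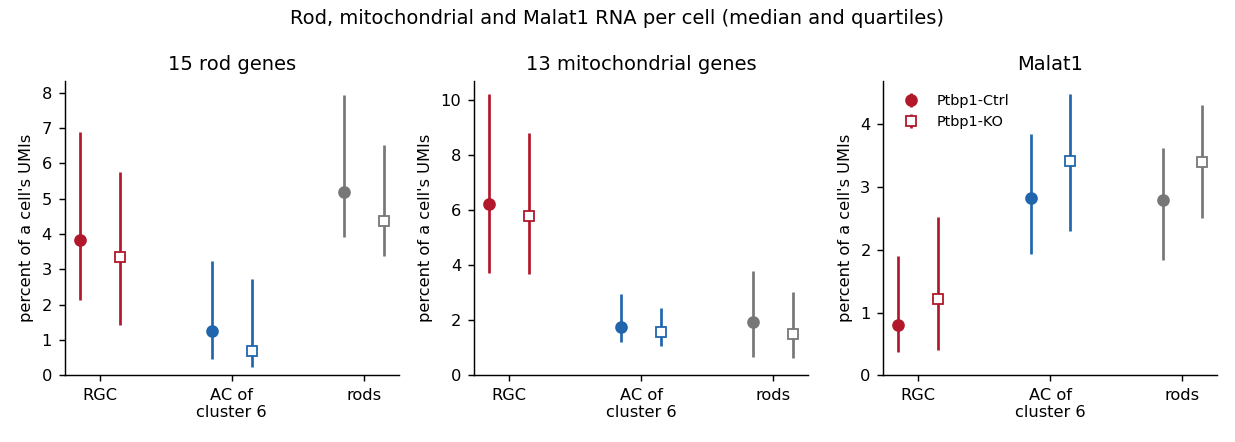
Percent of each cell's UMIs (y axes) from 15 rod genes, 13 mitochondrial genes and Malat1, in RGC, AC of cluster 6 and rods (x axes); points are medians over cells, bars the quartiles, filled circles Ptbp1-Ctrl and open squares Ptbp1-KO. RGC lie between AC of cluster 6 and rods for rod genes, above both for mitochondrial genes (6.22% and 5.78%) and below both for Malat1.

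RGC with more ganglion cell markers held less rod RNA. With markers counted at 1000 UMIs, the 58 RGC with no marker had a median rod gene share of 6.76% of all their UMIs, the 33 with 1 marker 4.08%, the 24 with 2 markers 3.30% and the 32 with 3 or more 0.774%. Axon, transmission and excitability genes of the lists above other than the 6 markers, which were not used to sort the cells here, summed in the thinned cells to 2448 CPM in RGC with none, 4848 with 1, 8250 with 2 and 10938 with 3 or more. Both libraries showed this order, at 2821, 4750, 7214 and 10778 CPM in Ptbp1-Ctrl and 2100, 4941, 9700 and 11143 CPM in Ptbp1-KO. The summed levels are over cells of the same number of UMIs, and before thinning the median depth was 1722 UMIs in RGC with no marker and 1898 in those with 3 or more. Rod and ganglion levels are parts of 1 total.

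Single genes followed the summed values. Stmn3, a relative of Stmn2, went from 207 CPM in RGC without a marker to 2531 CPM in RGC with 3 or more. Atp1b1, a sodium pump subunit, went from 862 to 4125 CPM. The summed rod genes went the other way, from 72690 to 23094 CPM. Gad1 was at 69.0 CPM in RGC without a marker, from 4 UMIs (18.8 to 177). It had 0 UMIs in RGC with 2 markers (0 to 154) and with 3 or more (0 to 115), so these intervals overlapped. The summed amacrine markers were at 1362 CPM without a marker and 594 CPM with 3 or more. RGC without a marker had a median mitochondrial share of 4.19% and a median Malat1 share of 1.07%, and RGC with 3 or more had 7.72% and 0.647%.

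**Figure D4:**
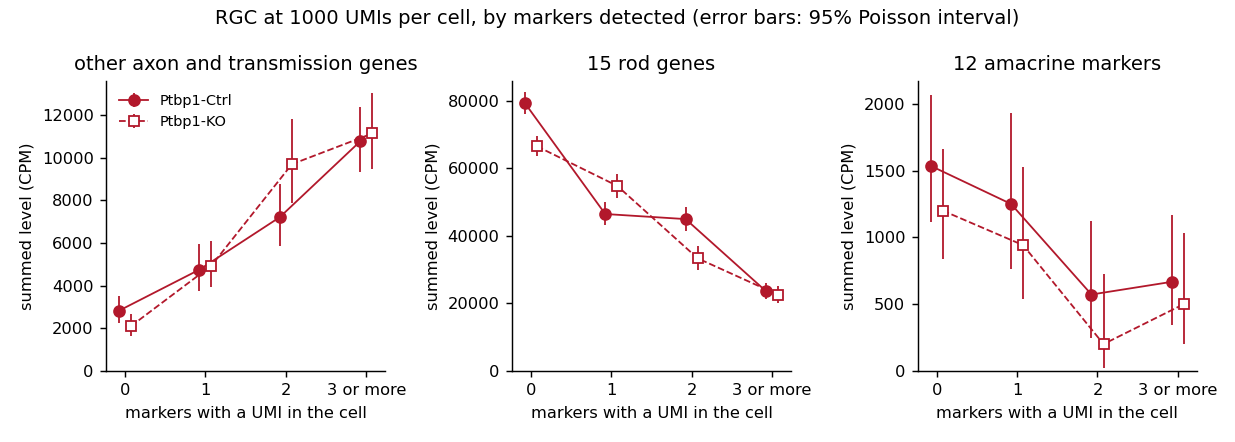
Summed level in CPM (y axes) of axon, transmission and excitability genes other than the 6 markers, of 15 rod genes and of 12 amacrine markers, by the number of markers with a UMI in the cell (x axes), in RGC thinned to 1000 UMIs; filled circles are Ptbp1-Ctrl, open squares Ptbp1-KO, bars Poisson 95% intervals. Ganglion genes go from 2448 to 10938 and rod genes from 72690 to 23094 CPM over both libraries.

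As a description across cells, Spearman's rank correlation between the number of markers at 1000 UMIs and the rod gene share of the cell was -0.55 in the 76 Ptbp1-Ctrl RGC and -0.50 in the 71 Ptbp1-KO RGC. Between the number of markers and the mitochondrial percent it was 0.28 and 0.51. The cells of each value share 1 library, and the markers and the shares come from the same UMIs.

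Genes of ganglion cell subtypes were found in small numbers of RGC. Of 22 listed genes 15 were measured, 6 (Opn4, Spp1, Calb2, Pvalb, Tac1 and Kitl) were higher than in AC of cluster 6 in both libraries and none was lower, against 11.8% and 15.1% of all genes, with a median log2 ratio of 1.47. Opn4, melanopsin of intrinsically photosensitive ganglion cells, had 20 UMIs in 9 of the 221 RGC, and Eomes, a transcription factor of the same cells, was found in 3 RGC, 1 of them with Opn4. Spp1 was found in 10 RGC and Pvalb, parvalbumin, in 15, and 6 RGC had both. Tac1, a tachykinin precursor, was found in 33 RGC and Kitl, the Kit ligand, in 19. Kcng4, Zic1 and Trhr had 0 UMIs. Of 16 RGC with Pou4f1, 14 also had Slc17a6, and of 34 with Rbpms, 25 did, while Slc17a6 was found in 78 RGC.

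Calb2 and Cartpt were concentrated in few RGC, and in different ones. Calb2 encodes the calcium-binding protein calretinin. Of its 727 UMIs in RGC, 626 (86.1%) lay in 8 cells with 22 to 136 UMIs each. These cells had 5 or 6 of the markers and were all among the 10 deepest RGC. Cartpt (chr13:99898489-99901091) encodes the CART neuropeptide precursor, which marks direction-selective ganglion cells and some amacrine cells. It had 4035 UMIs in 42 Ptbp1-Ctrl RGC and 409 UMIs in 25 Ptbp1-KO RGC. Just 7 RGC with 20 or more UMIs of it, 6 in Ptbp1-Ctrl and 1 in Ptbp1-KO, held 95.8% of these UMIs. The 6 Ptbp1-Ctrl cells had 1444, 1036, 678, 400, 252 and 136 Cartpt UMIs and the Ptbp1-KO cell had 313, which was 12.7% to 49.98% of all UMIs in the cell. They had 0 to 2 of the 6 markers. In AC of cluster 6, 50 cells had 20 or more Cartpt UMIs, at 0.32% to 4.20% of the cell. Cartpt in rods was at 21.6 and 21.3 CPM.

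Between the RGC of the libraries, the gene with the lowest ratio was Cartpt, with a log2 ratio of Ptbp1-KO over Ptbp1-Ctrl of -3.09 (-3.24 to -2.94) and levels of 18939 and 2228 CPM. Most of the UMIs behind it lay in the 7 cells just described, 6 of which were Ptbp1-Ctrl. Without the cell of most Cartpt UMIs in each library the log2 ratio was -4.55 (-4.85 to -4.25). In the RGC with under 20 Cartpt UMIs, a split by the gene's own level made after seeing the data, Cartpt was at 442 CPM in the Ptbp1-Ctrl library and 530 CPM in the Ptbp1-KO library, at a log2 ratio of 0.26 (-0.17 to 0.70). Its log2 ratio was 0.48 in AC of cluster 6.

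Counted over all genes, 26 of 1588 tested in RGC (1.64%) were at least 2-fold higher in Ptbp1-KO and 59 (3.72%) were at least 2-fold lower, tested genes having a mean of at least 100 CPM and at least 50 UMIs. The median log2 ratio of these genes was 0.00, and the interval lay above 0 for 179 (11.3%) and below 0 for 176 (11.1%). When AC of cluster 6 were thinned to the same total UMIs as RGC, 15 of 1822 genes (0.823%) were higher and 9 (0.494%) lower, and in rods thinned likewise 7 of 1624 (0.431%) were higher and 12 (0.739%) lower. Without the 10 deepest RGC, 20 of 1195 genes were higher and 15 lower, and 7 of those cells were Ptbp1-Ctrl.

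Ptbp1 itself was too low in RGC to check the deletion there. It had 5 UMIs in 5 Ptbp1-Ctrl RGC and 0 in Ptbp1-KO RGC. The floor of 3 counts set for that 0 is 16.3 CPM, against 23.5 CPM in Ptbp1-Ctrl. Rods had 255 Ptbp1 UMIs in Ptbp1-Ctrl against 4 in Ptbp1-KO, and AC of cluster 6 had 14 against 1. Ptbp2, the neuronal paralog of Ptbp1, was at 127 CPM in Ptbp1-Ctrl RGC and 98.0 CPM in Ptbp1-KO RGC, with a log2 ratio of -0.37 (-1.32 to 0.54). Ptbp3 had 6 and 3 UMIs.

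Some ganglion cell genes were lower in the summed Ptbp1-KO RGC, and for the markers and axon genes this was lost without the 10 deepest cells. Of the 6 markers 2 had an interval below 0 and none above, against 11.1% and 11.3% of all genes. Sncg was at a log2 ratio of -1.22 (-1.62 to -0.83) and Nefl at -0.75 (-1.22 to -0.29). Thy1 was at 0.09 (-0.24 to 0.43) and Slc17a6 at -0.28 (-0.75 to 0.18). Of 15 axon and cytoskeleton genes 5 (Nefl, Sncg, Gap43, Stmn3 and Uchl1) were lower and none higher, with a median of -0.50, and of 12 transmission and excitability genes none had an interval clear of 0, with a median of -0.29. Of 9 subtype genes 5 (Spp1, Cartpt, Pvalb, Tac1 and Calb2) were lower and none higher, with Calb2 at -1.32 (-1.56 to -1.07). The median of all tested genes was 0.00. Without the 10 deepest RGC, Sncg had 37 UMIs in each library and a log2 ratio of -0.02 (-0.72 to 0.68), Nefl was at -0.23 (-0.89 to 0.43) and Calb2 at -0.28 (-0.87 to 0.32). None of the 5 markers and 12 axon and cytoskeleton genes that could still be measured had an interval clear of 0, and their medians were -0.02 and -0.01. Of the 6 subtype genes still measured 2 remained lower, Cartpt at -3.35 (-3.50 to -3.20) and Spp1 at -2.64 (-4.03 to -1.47), and none was higher, with a median of -0.35. The transcription factor Foxp1 was at -1.60 (-3.22 to -0.21). Over all 1195 genes tested without these cells, 7.7% were higher and 6.53% lower by the same rule.

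Summed rod genes were higher in Ptbp1-KO RGC, and this direction was lost without the 10 deepest cells. In RGC 10 of 15 rod genes had an interval above 0, against 11.3% of all genes, and none below, with a median log2 ratio of 0.25. Among AC of cluster 6, 13 were lower, against 12.3% of 2350 genes, with a median of -0.39. In rods 11 were lower, against 31.6% of 2038 genes, with a median of -0.17. Gnat1, rod transducin alpha, was at 3215 CPM in Ptbp1-Ctrl RGC and 4978 CPM in Ptbp1-KO RGC, against 5362 and 5395 CPM in rods. Without the 10 deepest RGC, 1 rod gene was higher and 4 were lower, with a median of -0.08. Of all 1195 genes tested without these cells, 7.7% were higher and 6.53% lower. The median rod gene share per cell also had the opposite order, at 3.83% in Ptbp1-Ctrl RGC and 3.37% in Ptbp1-KO RGC.

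The 8 genes furthest above Ptbp1-Ctrl in RGC were all at a higher level in rods than in RGC of the same library. A higher level in rods was common, since the median log2 ratio of RGC over rods was -0.24 over all 4043 genes tested. Otx2, a homeobox factor of photoreceptors and bipolar cells, had 17 UMIs in Ptbp1-Ctrl RGC and 41 in Ptbp1-KO RGC, at 79.8 and 223 CPM, against 279 and 366 CPM in rods. Its log2 ratio was 1.48 (0.64 to 2.39) in RGC and -0.15 in AC of cluster 6. Gm10800, a gene model of unknown function, was at 263 and 855 CPM in RGC and 539 and 1084 CPM in rods, at log2 ratios of 1.70 (1.25 to 2.17) and 1.01. Ip6k2, an inositol hexakisphosphate kinase, was at 1.54 (0.83 to 2.28) in RGC and 0.87 in rods. Itsn2, an endocytic scaffold, was at 1.56 (0.66 to 2.52) in RGC and 0.10 in rods. The others were Diaph3 at 1.54, Frmpd2 at 1.48, Sntb2 at 1.43 and Gm48677 at 1.43. Gm48677 (chr9:75317072-75342842) is annotated as antisense, and whether the counting used strand is not given in the sources used here. Summed rod RNA moved in the same direction with all RGC and in the opposite one without the 10 deepest, whereas the log2 ratio of Otx2 was 1.18 (0.32 to 2.10) without them. The part of rod RNA in these ratios was not tested.

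Of the 8 genes furthest below Ptbp1-Ctrl, Gm47283 (chrY:90784738-90816464) was lower in all cell groups compared, at -2.32 (-2.78 to -1.89) in RGC, -2.54 in AC of cluster 6 and -2.16 in rods. The Y-linked gene Uty had UMIs in RGC of both libraries, 24 in Ptbp1-Ctrl and 17 in Ptbp1-KO, while Xist had 0 in both. Spp1 was at -2.40 (-3.80 to -1.24), which rests on 8 and 2 cells. Epha6, an ephrin receptor, was at -1.97 (-3.20 to -0.91) and moved to -1.02 without the 10 deepest RGC. Fxyd7, a sodium pump regulator, was at -1.64 (-2.48 to -0.87) and moved to -0.55 without them. Grm7, a metabotropic glutamate receptor, was at -1.86 (-3.02 to -0.84) with 42 and 10 UMIs, and Auts2, a neuronal chromatin regulator, was at -1.63 (-2.57 to -0.79) with 54 and 15 UMIs. In AC of cluster 6 Grm7 was at -0.27 and Auts2 at 0.03. Ndufb6, a subunit of mitochondrial complex I, was at -1.65 (-2.76 to -0.66) with 40 and 11 UMIs, and at -0.03 in AC of cluster 6.

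**Figure D5:**
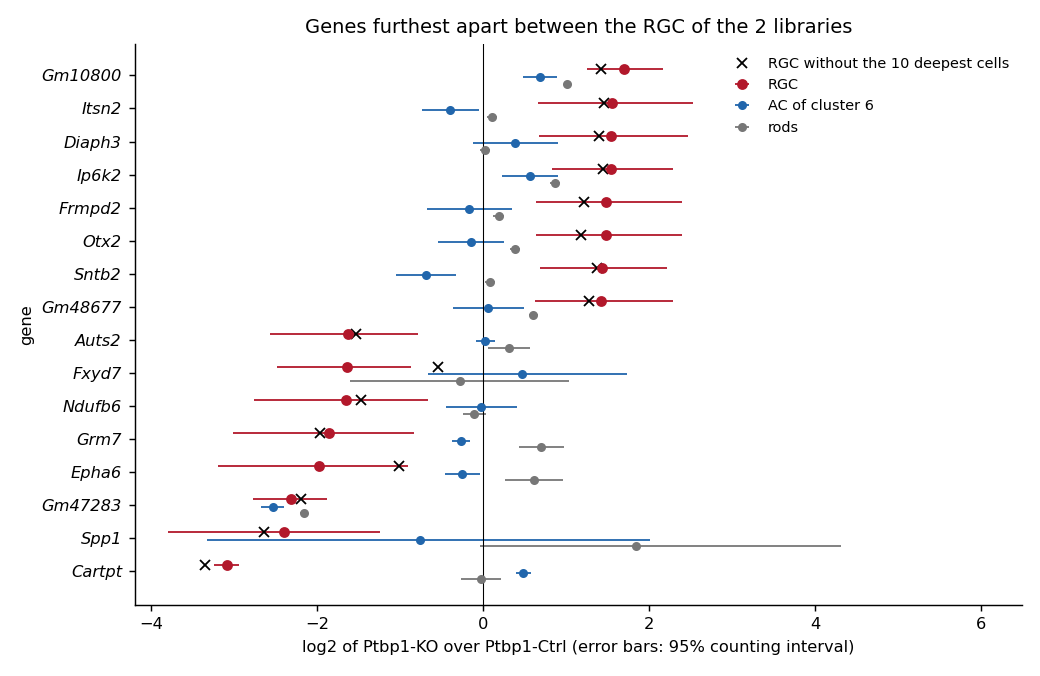
Log2 ratio of Ptbp1-KO over Ptbp1-Ctrl level (x axis) for the 16 genes furthest apart between the RGC of both libraries (y axis); red circles are RGC, crosses RGC without the 10 deepest cells, blue circles AC of cluster 6, grey circles rods, bars 95% counting intervals. Cartpt is lowest at -3.09 and Gm10800 highest at 1.70, and Fxyd7 moves from -1.64 to -0.55 without the deepest cells.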

How the data were processed

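The authors dissociated P30 retinas with papain, prepared 10x Genomics libraries, aligned reads to mm10 with Cell Ranger 7.0.1 and filtered cells in Seurat 4, keeping cells of over 200 and under 5000 genes, over 700 and under 10000 UMIs and under 20% mitochondrial UMIs. The deposited table holds raw UMI counts of 25778 genes in 30943 cells, and the deposited cell table gives each cell's library, cluster, cell type and the percent of mitochondrial UMIs. The authors named clusters from marker genes. The gene annotation and any intron counting are not given in the sources used here, and 2 per-cell columns were not used.

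UMIs were summed by cell type and library. Intervals were exact Poisson, Clopper-Pearson and conditional binomial. No test was run, since each genotype had 1 library. Named genes were the members of 21 lists, the 12 highest and 8 lowest against AC of cluster 6, and the 8 highest and 8 lowest between libraries, among genes whose intervals left out 0. List members needed 20 UMIs. The members and lists were chosen with earlier results of these data known. Scrublet called 0 doublets and so did not work here, and leaving out the 5% of cells with the highest score (0 of them RGC) was an alternative. The ratio code was tested on simulated data. Alternatives covered scaling, CPM minimums, thinning depth, mitochondrial percent, subtraction of the rod profile and deep cells. Python 3.11.15, numpy 2.4.6, scipy 1.17.1, pandas 2.3.3, scanpy 1.11.5 and edgeR 4.0.16 (TMM factors, as a scaling alternative) were used. Some genes are not reported here.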

Additional observations from a re-analysis of the deposited data

Results flagged for a closer look

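Some ratios of Ptbp1-KO over Ptbp1-Ctrl lay on opposite sides of 0 in RGC and in AC of cluster 6, with counting intervals clear of 0 in both. With 1 library per genotype these differences between cell groups were not tested. Itsn2 was at a log2 ratio of 1.56 in RGC and -0.40 in AC of cluster 6. Sntb2, which encodes the scaffold protein syntrophin beta, was at 1.43 and -0.69. Cartpt was at -3.09 and 0.48, and the summed RGC subtype genes, of which Cartpt held most UMIs, at -2.53 and 0.40. The summed rod genes were at 0.28 and -0.35, and the summed cone markers, of which Guca1a held most UMIs in RGC, at 0.29 and -0.48. Without the 10 deepest RGC, left out after seeing the data, the RGC values were -0.05 for rod genes and -0.01 for cone markers.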

How the results depend on the processing

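The median log2 ratio of the 6 markers over AC of cluster 6 (4.38) was 3.48 with cells thinned to 1000 UMIs, 5.33 with the rod profile subtracted and 3.26 without the 10 deepest RGC. Genes at least 2-fold higher and lower than in AC of cluster 6 (240 and 449) numbered 498 and 896 with the rod profile subtracted, 96 and 127 at a minimum of 200 CPM, and 858 and 1035 with no CPM minimum. Genes higher and lower in Ptbp1-KO RGC (26 and 59) numbered 5 and 9 in thinned cells (425 tested), 16 and 30 with the rod profile subtracted (599 tested), 9 and 22 at 200 CPM, 556 and 678 with no CPM minimum, and 20 and 15 without the 10 deepest RGC. The share of RGC with 2 or more markers (38.1%) was 29.0% at 700 UMIs and 27.4% in cells under 10% mitochondrial. The summed rod gene share of 4.69% in RGC, 1.44% in AC of cluster 6 and 6.74% in rods was 3.49%, 0.888% and 4.79% as a median over cells, 5.50% in RGC without the 10 deepest, and 3.11% in AC of cluster 6 at 1000 to 3000 UMIs. The median mitochondrial percent of 5.996% in RGC was 6.75% at 1000 to 3000 UMIs. In AC of cluster 6 (1.64%) it was 2.07% there and 1.92% summed over cells, and in rods (1.70%) it was 2.50% summed. Ratios of Ptbp1-KO over Ptbp1-Ctrl changed sign for Epha6 in thinned cells (0.68), for Cartpt without the cells of 20 or more Cartpt UMIs (0.26, a split by the gene's own level, against -4.55 without the cell of most UMIs in each library) and for the median of RGC transcription factors with the rod profile subtracted (0.21, against -0.89), and for the median of rod genes (0.25) in thinned cells (-0.086) and without the 10 deepest RGC (-0.078). The causes were not tested. The Ptbp1-KO over Ptbp1-Ctrl ratio of RGC shares was 0.885 over all cells, 0.953 over cells other than rods, 0.992 over cells of 1000 UMIs or more and 0.587 within cluster 6. No paired analysis was possible because each genotype has 1 library. The alternatives that leave out deep cells, the cell with the most UMIs of a gene or the cells high in Cartpt were chosen after seeing the data. Depth limits single genes, since the floor of 3 counts set for a 0 in RGC is 14.1 CPM in the Ptbp1-Ctrl library and 16.3 CPM in the Ptbp1-KO library.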

Other observations

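Dissociation stress and immediate early genes did not stand apart in RGC. Of 12 measured genes 1 (Hsp90aa1, a chaperone) was higher than in AC of cluster 6 in both libraries and none was lower. Of all genes, 11.8% were higher and 15.1% lower by the same rule. The median log2 ratio of the list was -0.41, which moved to 0.33 without the 10 deepest RGC. Fos had 4 UMIs in Ptbp1-Ctrl RGC and 2 in Ptbp1-KO RGC, and Jun had 5 and 6. Of 7 measured genes linked to axon injury 1 was higher and none lower, against the same 11.8% and 15.1% of all genes. It was Gal, the neuropeptide galanin, with 12 UMIs in 5 Ptbp1-Ctrl RGC and 4 UMIs in 3 Ptbp1-KO RGC. AC of cluster 6 had 1 and 6 UMIs of Gal. The log2 ratios of Gal were 5.58 (2.83 to 11.002) and 2.80 (0.53 to 4.88).

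RGC with Malat1 under 1% of their UMIs differed between the libraries in the other measures. In Ptbp1-Ctrl there were 70 such RGC, with a median rod gene share of 5.86%, and 44.3% of them had 2 or more markers. In Ptbp1-KO there were 42, with a median rod gene share of 1.80%, and 71.4% had 2 or more markers. Rods with Malat1 under 1% had median rod gene shares of 13.1% and 13.5%. These shares were not thinned, and whether the difference between the libraries exceeds that between animals could not be tested.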
